A study of Homo sapiens with 6 samples.

Results

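The clustered histone genes encode the linker histone H1 and the core histones H2A, H2B, H3 and H4. Their messages in polyadenylated RNA were examined in 6 libraries of THP1, a human acute myeloid leukemia line of monocytic type. Members were the protein-coding genes whose GENCODE 29 symbols begin with HIST1H, HIST2H, HIST3H or HIST4H, without HIST2H2AA3 and HIST2H2AA4. There were 69 such genes among 34905 genes with a transcript in the tables: 6 of class H1, 15 of H2A, 18 of H2B, 15 of H3 and 15 of H4. Of these genes, 55 lie on chromosome 6, 13 on chromosome 1 and 1 on chromosome 12. The rule used names only, though it was set with earlier results of these data known. Low counts left 21 members for testing, 1 of H1, 4 of H2A, 9 of H2B, 3 of H3 and 4 of H4.

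All libraries came from THP1 cells grown in RPMI-1640 with fetal bovine serum, penicillin and streptomycin. The libraries fall into 3 groups of 2. The libraries titled shCtrl have the genotype label wild-type, those called shALKBH5 here are labelled as a knock-down of ALKBH5, an RNA m6A demethylase, and the rest are labelled as ALKBH5 rescue. The sources used here do not give the vectors, the knock-down sequences, the number of clones or the time of harvest. ALKBH5 itself did not follow these labels. It measured 14.6, 12.4 and 13.6 CPM (estimated counts scaled to the size of each library with the TMM method) in the libraries labelled shCtrl 1, shALKBH5 1 and rescue 1, and 1097, 1003 and 968 CPM in shCtrl 2, shALKBH5 2 and rescue 2. The transcript thus followed the replicate number in the titles, not the group. Each library is therefore named below by its label, and every direction between groups is a direction between labels. The labels do not say what the number stands for, so the number and the ALKBH5 level cannot be told apart.

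Most clustered histone genes are made for chromosome replication. Their messages usually lack a poly(A) tail and end just after a conserved stem-loop, which is bound by the stem-loop binding protein SLBP and cut with the help of the U7 small nuclear RNP. Some of these genes also give longer, polyadenylated messages from signals downstream of the stem-loop, which is best known in differentiating or resting cells. Per the labels' protocols, the messages were isolated here with oligo-dT beads, so RNA without a poly(A) tail is expected to be depleted and the values below are not the total output of these genes.

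The stem-loop was located in the annotated transcripts to show what the counted models contain. The search took 16 bases after the stop codon, on the transcript's own strand, that read GG, any 4 bases, TT, any 6 bases and CC, with outer arms of 6 bases that pair with each other. It was found in 28 of 69 members. The first sequences below are those of genes that lead the results, from GENCODE 29 transcripts, with 5 bases on each side and with the paired arms in capitals:
HIST1H2AC: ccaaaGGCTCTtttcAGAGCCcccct
HIST1H2BD: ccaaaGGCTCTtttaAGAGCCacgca
HIST2H2BF: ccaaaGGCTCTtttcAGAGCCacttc
HIST2H4A: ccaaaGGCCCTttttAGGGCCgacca
HIST1H4H: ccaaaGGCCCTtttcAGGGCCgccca
The arms were the same within a class. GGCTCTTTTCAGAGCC was present in 15 members (4 of H2A, 8 of H2B and 3 of H3), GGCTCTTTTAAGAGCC in 5 (3 of H2B and 2 of H3), and the H4 genes had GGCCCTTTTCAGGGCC in 5 and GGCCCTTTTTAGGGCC in 3.

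The annotated models differed in how far they run past the stop codon. For 35 members the models end at the stop codon itself, so no stem-loop can be seen in them. Only 4 of these 35 passed the count filter (HIST1H1C, HIST2H2AC, HIST1H2BK and HIST2H3PS2), and the 35 together held 32.8% of the clustered histone counts. Of 21 members with a model running over 100 bases past the stem-loop, 15 passed, and they held 61.6% of the counts. The 7 members whose stem-loop models all end within 100 bases of it held 3.8%, with HIST1H2BD the 1 tested. The 6 members with longer models but no match held 1.7%, with HIST1H2AG the 1 tested. A longer model also offers more bases for reads to match, so these count shares are not per length. The shares also count every model of a gene, with or without the stem-loop. HIST1H2BD-201, which has 384 bases after the stop codon and no match, had 14.8 to 74.5 estimated counts per library. HIST1H2BD-202, which holds the stem-loop, had 18.7 to 36.2. Both stem-loop models of HIST1H2AC ran on for 1128 and 1114 bases and had AATAAA, the usual polyadenylation signal, in their last 50 bases. The HIST1H2BD model with the stem-loop ended 39 bases past it and also held AATAAA there.

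**Figure D1:**
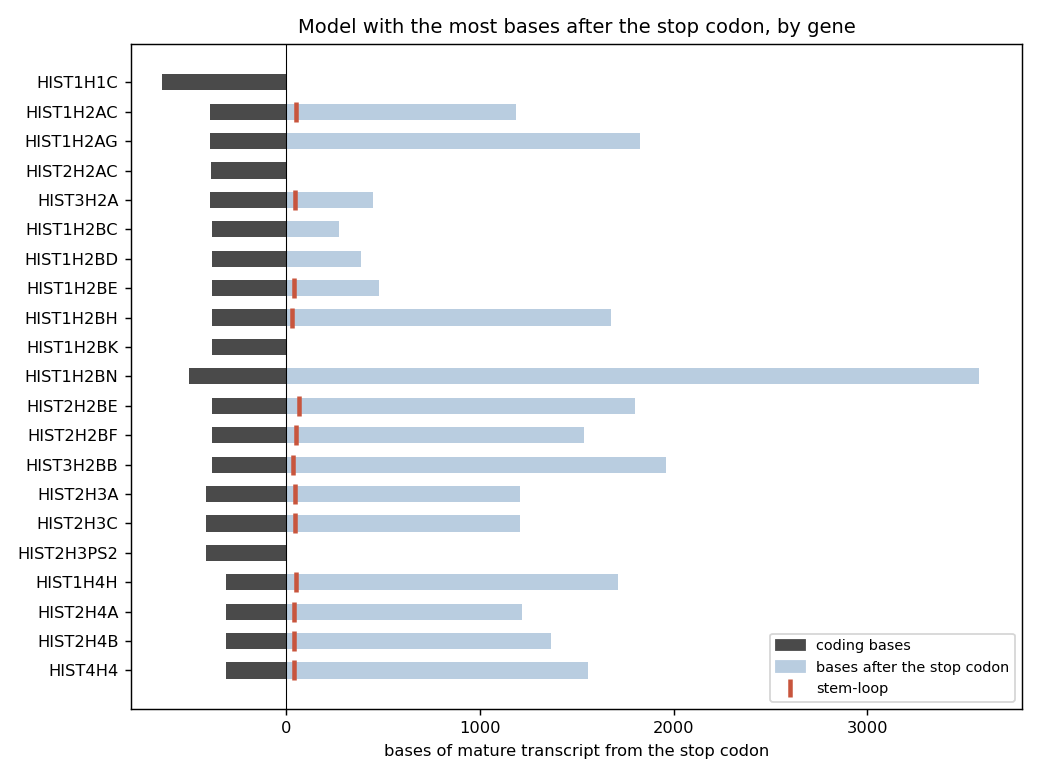
For each of the 21 tested genes, the horizontal axis gives bases of the mature transcript from the stop codon, with coding bases to the left, bases after the stop codon to the right and the stem-loop as a red mark where that model holds a match. The model drawn is the one with the most bases after the stop codon. For HIST1H2BD, HIST1H2BC and HIST1H2BN it is not a model that holds the stem-loop.

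The clustered genes gave few counts. The sum over the 69 genes was 1635, 1981 and 2718 estimated counts in shCtrl 1, shALKBH5 1 and rescue 1, and 1697, 1644 and 1487 in shCtrl 2, shALKBH5 2 and rescue 2, of library totals of 14534386 to 24857373. A few genes carried most of them. The gene with the most counts held 21.2%, the first 4 held 53.9% and the first 10 held 82.9%. Among the 48 untested members the highest count in any library was 12. No count at all was seen in 6 members (HIST1H1A, HIST1H2AA, HIST1H2BA, HIST1H3F, HIST1H4G and HIST1H4L), and 37 had 1 to 30 counts over the 6 libraries.

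Per length, in the authors' TPM values (scaled for transcript length), the clustered genes were a minor part of the histone messages in these libraries. Their sum was 269 to 345 TPM, against 3844 to 4387 TPM for 15 replacement histone genes outside the clusters, which mostly make ordinary polyadenylated messages. The replacement gene H3F3B, which encodes H3.3, alone measured 1323 ± 129 TPM (SD, n = 6), and H2AFZ, which encodes H2A.Z, 706 ± 206 TPM. The highest clustered gene per length was HIST2H3PS2 (72.4 ± 9.22 TPM, n = 6), which shares nearly all of its sequence with an annotated gene that overlaps it. HIST1H2BK followed at 43.5 ± 16.3 TPM, HIST1H1C at 38.4 ± 5.78, HIST2H2AC at 33.7 ± 5.40 and HIST2H4A at 27.6 ± 7.33. These last 4 ranges over the 6 libraries overlapped, so their order is not larger than their spread. HIST2H2BF was at 16.4 ± 1.83 TPM, HIST1H2BD at 10.5 ± 2.11, HIST3H2A at 9.18 ± 0.896 and HIST1H2AC at 5.62 ± 3.03. The excluded pair HIST2H2AA3 and HIST2H2AA4 summed to 156, 158 and 161 TPM in shCtrl 1, shALKBH5 1 and rescue 1. In shCtrl 2, shALKBH5 2 and rescue 2 it summed to 77.6, 73.9 and 84.1 TPM.

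**Figure D2:**
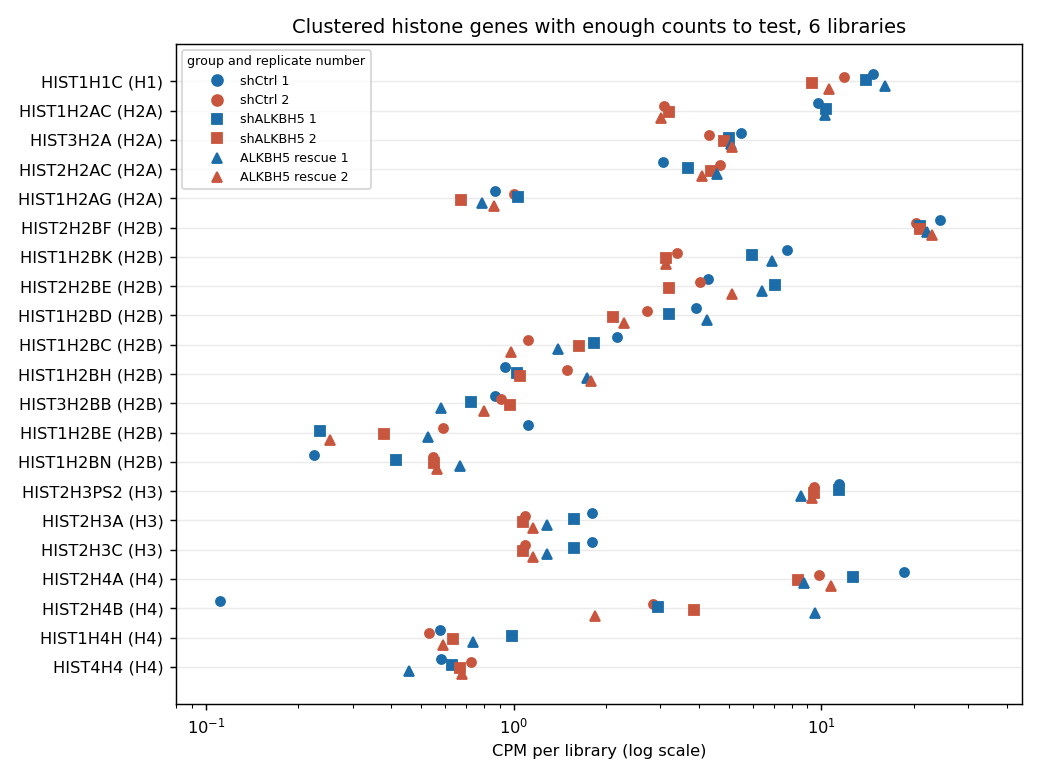
Each row is 1 tested clustered histone gene, with its class in brackets, and the horizontal axis gives CPM per library on a log scale. Blue points are libraries numbered 1 and red points those numbered 2, and the shape gives the labelled group. HIST1H2AC, HIST1H2BK, HIST1H1C and HIST1H2BD separate by color, and HIST2H4B has its lowest point at 0.111 CPM in shCtrl 1.

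Between the replicate numbers, 4 of the 21 tested members changed and all 4 fell in the libraries numbered 2: HIST1H2AC, HIST1H2BK, HIST1H2BD and HIST1H1C. Number 2 was compared with number 1 over the 3 groups, with the group as a term (edgeR quasi-likelihood test, Benjamini-Hochberg over 14497 genes, threshold 0.05). This contrast moved much of the transcriptome: 45.4% of all genes tested passed, 22.8% higher and 22.6% lower. The share of members called, 4 of 21, was below that background, so the count itself does not set the clustered genes apart. The log2 difference was negative for 16 of the 21, with a median of -0.36 against 0.01 over all genes tested. In 7 of the 21 the CPM values of the numbers did not overlap, 6 of them lower in number 2, against 57.7% of all genes in either direction and 29.1% lower. HIST2H3A and HIST2H3C, which share their counts, are among the 6. These are bulk libraries, in which fewer cells carrying a message and less message per cell cannot be told apart.

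HIST1H1C, which encodes the linker histone H1.2, lies at chr6:26055787-26056428 on the minus strand (GRCh38) and is the only H1 gene with enough counts. It measured 14.8, 14.0 and 16.1 CPM in shCtrl 1, shALKBH5 1 and rescue 1, and 11.8, 9.29 and 10.6 CPM in shCtrl 2, shALKBH5 2 and rescue 2. The 3 libraries numbered 2 were all below the 3 numbered 1. The gene fell by 0.51 on the log2 scale (SE 0.13, 95% interval -0.79 to -0.22, edgeR adjusted p = 0.00961). DESeq2 gave the same size with an adjusted p of 0.0514. Without shALKBH5 1 or shALKBH5 2 the edgeR value was -0.46 or -0.45 and did not pass. In both fits the number difference rests on the shCtrl and rescue libraries. The next H1 genes were HIST1H1E at 0.228 ± 0.122 CPM and HIST1H1B at 0.0742 ± 0.0836 CPM (SD, n = 6), both untested.

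HIST1H2AC, a gene for the core histone H2A at chr6:26124145-26139116 on the plus strand, differed most between the numbers among the clustered genes. It measured 9.76, 10.3 and 10.3 CPM in shCtrl 1, shALKBH5 1 and rescue 1, and 3.09, 3.20 and 3.01 CPM in shCtrl 2, shALKBH5 2 and rescue 2. The groups differed little within a number, and the numbers were far apart in every group. The gene fell by 1.71 on the log2 scale (SE 0.15, 95% interval -2.05 to -1.37, edgeR adjusted p = 4.27e-05), a 3.26-fold lower level. Within the shCtrl, shALKBH5 and rescue labels the log2 ratio of number 2 to number 1 was -1.66, -1.69 and -1.77. Of its 31-base windows, 98.2% occur in no other gene of the annotation.

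The size of the HIST1H2AC fall, and whether it passed, depended on which of its models were counted. Model HIST1H2AC-201, annotated as a target of nonsense-mediated decay, was given 95.8 estimated counts in shCtrl 1 and 101 in rescue 1, and 0 in the other 4 libraries. The protein-coding model HIST1H2AC-202, of 1654 bases against 1668, had 11.7, 153 and 88.0 counts in shCtrl 1, shALKBH5 1 and rescue 1, and 26.2, 55.9 and 44.7 in shCtrl 2, shALKBH5 2 and rescue 2. The third, HIST1H2AC-203, had 4.3 to 47.9 counts. Counting protein-coding models alone gave -0.87 (SE 0.33, edgeR adjusted p = 0.0794), which does not pass. That setting leaves out the HIST1H2AC-201 counts, which were seen only in 2 libraries numbered 1.

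The other H2A genes did not pass for the number. HIST3H2A measured 4.31 to 5.50 CPM over the libraries, with a log2 difference of -0.13 (95% interval -0.50 to 0.24). HIST2H2AC measured 3.05, 3.67 and 4.58 CPM in number 1 and 4.70, 4.38 and 4.10 in number 2, with a difference of 0.22 (95% interval -0.23 to 0.67). Only 49.4% of its 31-base windows were its own, and 40.0% were shared with each of HIST2H2AA3 and HIST2H2AA4. HIST1H2AG, which has the longest protein-coding transcript of the H2A class, lay between 0.675 and 1.03 CPM.

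Among the H2B genes, HIST1H2BK and HIST1H2BD fell. HIST1H2BK (chr6:27146418-27146798, minus strand) measured 7.74, 5.94 and 6.93 CPM in shCtrl 1, shALKBH5 1 and rescue 1, and 3.41, 3.12 and 3.14 CPM in shCtrl 2, shALKBH5 2 and rescue 2. The lowest library of number 1 stood above the highest of number 2. The gene fell by 1.09 on the log2 scale (SE 0.17, 95% interval -1.46 to -0.72, edgeR adjusted p = 0.000716), a 2.13-fold lower level. Its model is the coding sequence alone, and 13.7% of its 31-base windows are unique. The gene that shares the most, H2BFS with 74.4% of the windows, was counted at 0.0263 to 0.220 CPM. Genes with more counts share fewer windows, among them HIST2H2BF (14.8%, at 20.4 to 24.2 CPM) and HIST1H2BD (15.4%, at 2.10 to 4.26 CPM).

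HIST1H2BD (chr6:26158146-26171349, plus strand) measured 3.91, 3.20 and 4.26 CPM in shCtrl 1, shALKBH5 1 and rescue 1, and 2.71, 2.10 and 2.28 CPM in shCtrl 2, shALKBH5 2 and rescue 2. The numbers did not overlap. The gene fell by 0.68 (SE 0.20, 95% interval -1.13 to -0.23, edgeR adjusted p = 0.0201). The call was lost with DESeq2 (adjusted p = 0.189) and when either shALKBH5 library or either rescue library was left out. A label left with 1 library adds nothing to the number difference, so leaving out either library of a label is 1 check. HIST1H2BD overlaps the antisense gene AL353759.1 over 10585 bases of gene span, introns included. AL353759.1 has no transcript in the tables, and 84.6% of the 31-base windows of HIST1H2BD occur in no other gene. The sources used here do not give strand use in the counting.

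HIST2H2BF, the clustered gene with the most counts, did not pass for the number. It lies at chr1:149782689-149812373 on the minus strand and measured 24.2, 20.9 and 22.1 CPM in number 1 and 20.4, 20.9 and 22.8 in number 2. The log2 difference was -0.07 (SE 0.11, 95% interval -0.32 to 0.19). Between 95.1% and 98.2% of its counts went to the model that runs 1479 bases past the stem-loop. Its locus overlaps FCGR1A on the other strand over 9830 bases. HIST2H2BE measured 4.28, 7.08 and 6.43 CPM in number 1 and 4.04, 3.20 and 5.11 in number 2, and its difference of -0.53 (SE 0.22) had an edgeR adjusted p of 0.0718. The difference was -0.71 without shCtrl 1 or shCtrl 2 and -0.63 without rescue 1 or rescue 2. In each such fit the label left with 1 library adds nothing to the number difference. The remaining tested H2B genes, among them HIST3H2BB (0.582 to 0.970 CPM) and HIST1H2BN (0.225 to 0.669 CPM, the longest protein-coding transcript of the class), did not pass.

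**Figure D3:**
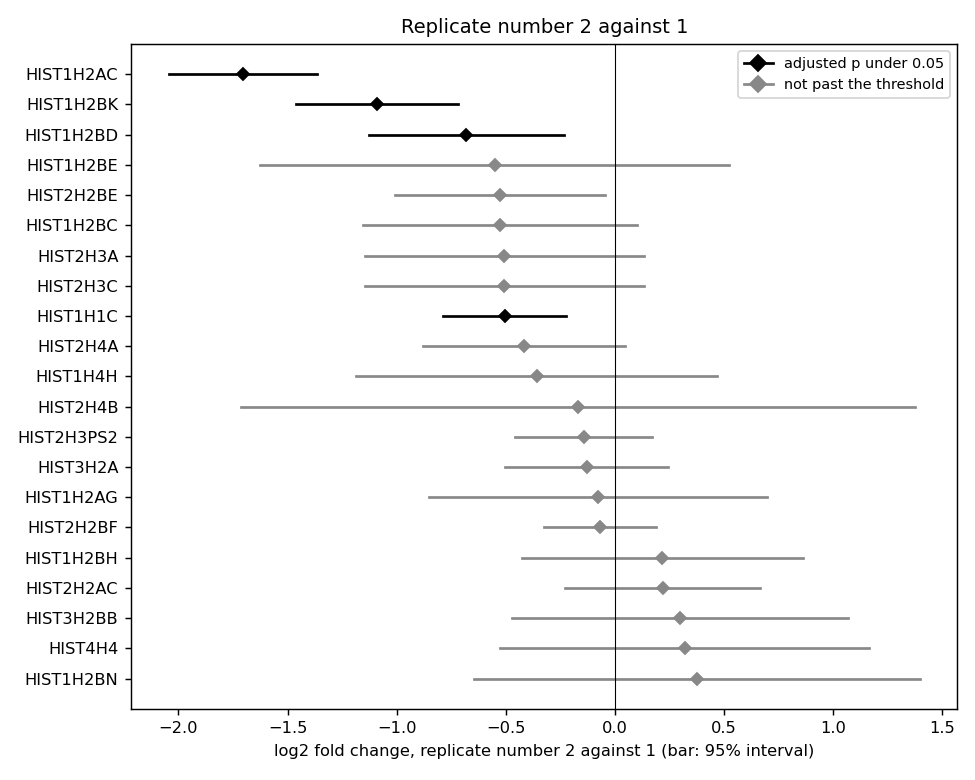
For each tested clustered histone gene, the horizontal axis gives the fitted log2 difference of replicate number 2 against number 1 with its 95% interval. Black marks the 4 genes with an edgeR adjusted p under 0.05, all left of 0, from -1.71 for HIST1H2AC to -0.51 for HIST1H1C, and grey marks the others.

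No H3 gene passed for the number. HIST2H3PS2 (chr1:143905556-143905966, minus strand) measured 11.4, 11.4 and 8.59 CPM in number 1 and 9.47, 9.44 and 9.34 in number 2. The libraries overlapped, and the difference was -0.14 (95% interval -0.46 to 0.17). None of its 31-base windows are unique in the annotation. AC239798.4 shares 99.5% of them, but it overlaps the gene on the same strand over 409 bases and has no transcript in the tables. Of genes in the tables, HIST2H3D shares 68.0%, HIST2H3DP1 59.6%, and HIST2H3A and HIST2H3C 32.5% each. HIST2H3A and HIST2H3C have the same transcript sequence, and the quantification gave each the same counts in every library. Summed, they measured 3.60, 3.14 and 2.56 CPM in number 1 and 2.18, 2.15 and 2.31 in number 2, with a difference of -0.48 (SE 0.22, edgeR adjusted p = 0.0973). Their 3 libraries numbered 2 were all below the 3 numbered 1. HIST1H3E, with the longest protein-coding transcript of the class, had at most 6 counts in a library. HIST3H3 had 0 counts in each library numbered 1 and 1, 2 and 3 counts in shCtrl 2, shALKBH5 2 and rescue 2, too few to test. HIST1H3G, also untested and named after its values were seen, had 0, 4 and 0 counts in shCtrl 1, shALKBH5 1 and rescue 1, and 6, 6.12 and 10 in shCtrl 2, shALKBH5 2 and rescue 2. With either shALKBH5 library left out it passed the filter and was called higher in number 2, from the shCtrl and rescue labels alone.

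The H4 genes HIST2H4A and HIST2H4B encode the same protein and share nearly all of their transcript sequence, with 1.4% and 2.8% unique windows. HIST2H4A measured 18.6, 12.7 and 8.79 CPM in shCtrl 1, shALKBH5 1 and rescue 1, and 9.83, 8.37 and 10.8 CPM in shCtrl 2, shALKBH5 2 and rescue 2, and did not pass (-0.42, SE 0.21, edgeR adjusted p = 0.128). HIST2H4B measured 0.111, 2.95 and 9.50 CPM in number 1 and 2.84, 3.86 and 1.83 in number 2 (-0.17, SE 0.69). The division of reads between the copies varied widely while their sum was steadier. The sum was 18.7, 15.7 and 18.3 CPM in number 1 and 12.7, 12.2 and 12.6 in number 2. It fell by 0.48 (SE 0.12, 95% interval -0.75 to -0.22, edgeR adjusted p = 0.00866), in an analysis chosen after seeing the data. With 1 rescue library left out, the number difference rests on the shCtrl and shALKBH5 labels. HIST2H4A was then at -0.76 without rescue 1 and -0.75 without rescue 2, and HIST2H4B at 1.25 and 1.20. HIST1H4H (0.532 to 0.988 CPM) and HIST4H4, the gene on chromosome 12 (0.458 to 0.729 CPM), were low in every library. HIST4H4 was the 1 gene of the 7 without overlap that was higher in number 2, with a difference of 0.32 that did not pass (95% interval -0.53 to 1.17). HIST1H4E, with the longest protein-coding transcript of the class, had at most 5 counts in a library.

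**Figure D4:**
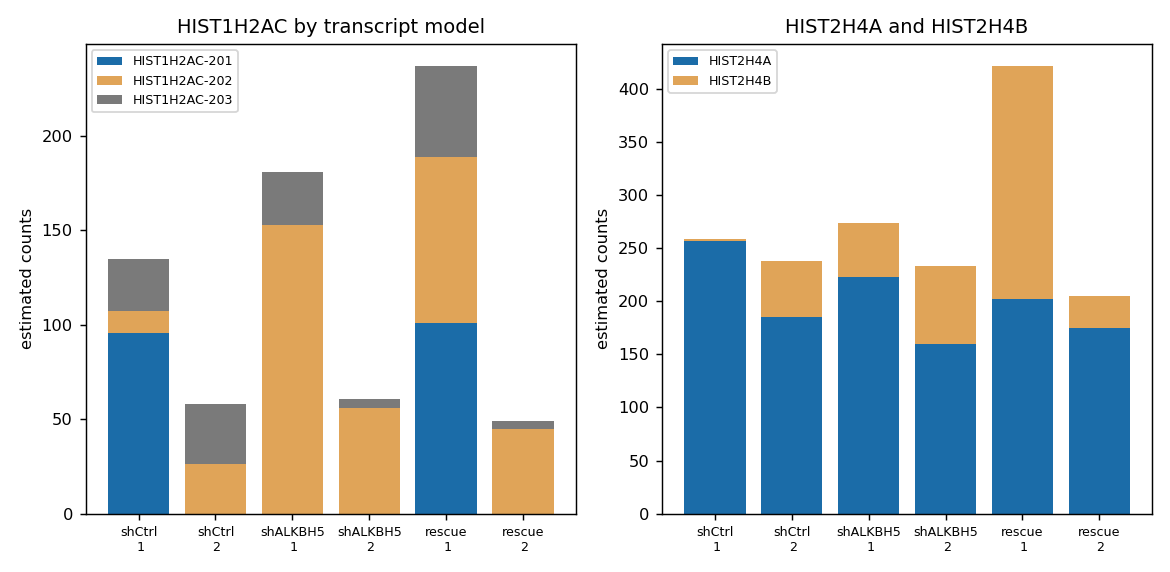
Stacked bars give estimated counts per library, for the 3 models of HIST1H2AC on the left and for the near-identical genes HIST2H4A and HIST2H4B on the right. HIST1H2AC-201 received counts in shCtrl 1 and rescue 1 only, and HIST2H4B received 1.54 counts in shCtrl 1 and 219 in rescue 1.

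The sum over the 69 clustered genes was lower in number 2 in each group. It was 118, 113 and 118 CPM in shCtrl 1, shALKBH5 1 and rescue 1, and 90.3, 86.3 and 91.4 CPM in shCtrl 2, shALKBH5 2 and rescue 2, a log2 ratio of -0.39, -0.39 and -0.37 within the shCtrl, shALKBH5 and rescue labels. The ratio of the mean of number 2 to that of number 1 was 0.767 for all members, 0.706 for H1, 0.658 for H2A, 0.806 for H2B, 0.905 for H3 and 0.738 for H4. These sums are descriptions with no test. The H3 sum was lower in number 2 in the shCtrl and shALKBH5 libraries (log2 ratio -0.28 and -0.26) and higher in the rescue libraries (0.13). Per length the H2A members did not go the same way: they summed to 46.9, 57.2 and 61.4 TPM in number 1 and 54.9, 58.4 and 55.8 TPM in number 2. These sums leave out HIST2H2AA3 and HIST2H2AA4, whose summed TPM was lower in number 2 in each group. The short model of HIST2H2AC weighs more in TPM than in CPM, and the long models of HIST1H2AC weigh less.

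**Figure D5:**
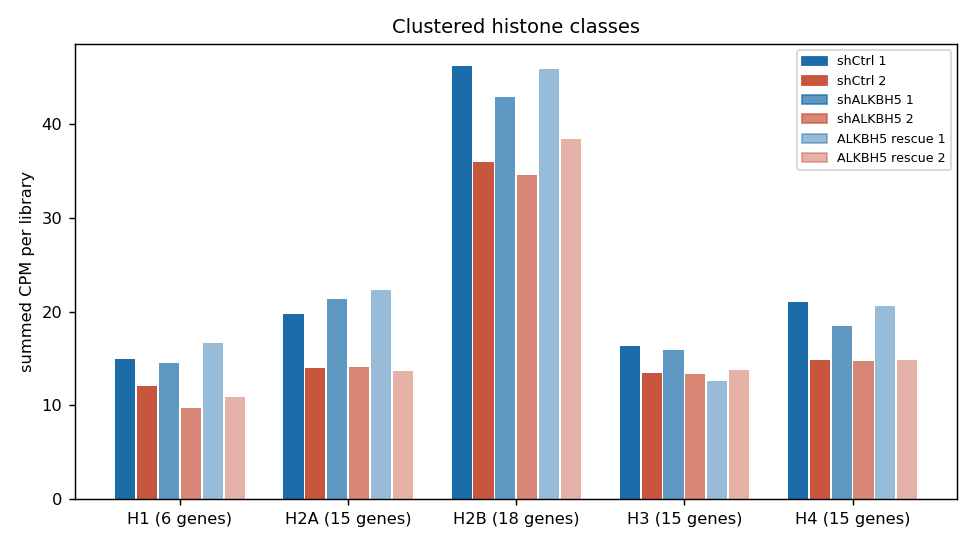
Bars give the summed CPM of all members of each class in each of the 6 libraries, with libraries numbered 1 in blue and those numbered 2 in red, and paler shades for the shALKBH5 and rescue labels. The H2A bars are 19.7 to 22.3 CPM in number 1 and 13.6 to 14.1 CPM in number 2.

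The promoters of the 4 genes that fell are shown. These genes were chosen by their calls between the numbers, so their common direction is not a separate result. The sequences are RefSeq's (GRCh38.p14), from 250 bases before to 50 bases after the start, 5′ to 3′ on the gene's strand. Capitals mark 3 motifs searched on both strands. The first is TATAAA, or TTTATA on the other strand. Then comes CCAAT, or ATTGG on the other strand, and last the octamer ATTTGCAT, or ATGCAAAT on the other strand. Where TATAAA and TTTATA overlap, the run of capitals covers both. The windows are chr6:26123922-26124221 (plus) for HIST1H2AC, chr6:27146809-27147108 (minus) for HIST1H2BK, chr6:26157871-26158170 (plus) for HIST1H2BD and chr6:26056421-26056720 (minus) for HIST1H1C:
HIST1H2AC: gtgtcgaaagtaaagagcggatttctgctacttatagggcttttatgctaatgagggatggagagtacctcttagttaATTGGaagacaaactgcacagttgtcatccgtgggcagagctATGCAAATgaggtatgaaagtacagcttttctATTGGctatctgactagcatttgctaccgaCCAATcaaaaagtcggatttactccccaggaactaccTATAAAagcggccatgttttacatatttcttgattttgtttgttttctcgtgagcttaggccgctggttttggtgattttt
HIST1H2BK: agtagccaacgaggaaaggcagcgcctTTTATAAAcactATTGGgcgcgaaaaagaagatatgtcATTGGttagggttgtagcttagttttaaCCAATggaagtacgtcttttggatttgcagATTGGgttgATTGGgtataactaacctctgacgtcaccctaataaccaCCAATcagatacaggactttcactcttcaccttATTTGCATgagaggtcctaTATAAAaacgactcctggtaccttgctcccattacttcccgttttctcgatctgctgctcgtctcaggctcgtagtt
HIST1H2BD: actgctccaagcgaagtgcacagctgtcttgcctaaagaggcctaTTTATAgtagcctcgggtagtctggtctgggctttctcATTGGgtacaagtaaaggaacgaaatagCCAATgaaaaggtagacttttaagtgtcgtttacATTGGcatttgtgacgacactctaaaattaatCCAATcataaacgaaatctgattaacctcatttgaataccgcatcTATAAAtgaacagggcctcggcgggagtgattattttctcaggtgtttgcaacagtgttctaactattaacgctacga
HIST1H1C: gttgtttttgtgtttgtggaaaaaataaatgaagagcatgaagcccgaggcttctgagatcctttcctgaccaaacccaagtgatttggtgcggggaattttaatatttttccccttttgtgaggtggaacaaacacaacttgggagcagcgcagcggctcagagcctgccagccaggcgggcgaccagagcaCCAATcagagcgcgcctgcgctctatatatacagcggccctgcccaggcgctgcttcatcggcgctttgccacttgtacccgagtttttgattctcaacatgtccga
All 4 windows hold CCAAT, HIST1H1C lacks TATAAA, and the octamer is in HIST1H2AC and HIST1H2BK. The window of HIST1H2BC, chr6:26123877-26124176 (minus), overlaps that of HIST1H2AC, and HIST1H2BC did not pass for the number (-0.52, SE 0.28). Over the 64 members with a RefSeq promoter, CCAAT was in 84.4%, TATAAA in 65.6% and the octamer in 40.6%, against 34.6%, 11.5% and 1.8% of 35116 promoters. The classes differed: the octamer was in 11 of 14 H2A, 14 of 18 H2B and 1 of 13 H3 promoters, and in none of 6 of H1 and 13 of H4. The H3 gene with it, HIST1H3D, has the same window as HIST1H2AD, so that promoter is counted in both classes. CCAAT was in 3 of 13 H4 promoters and in every promoter of the other classes. HIST2H4A and HIST2H4B have the same promoter sequence, and windows of neighboring genes can overlap, so the 64 are not separate promoters. No entry was matched for HIST1H4C, HIST1H3I, HIST1H2AH, HIST1H4A and HIST1H3J.

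Between the labelled groups, no clustered histone gene passed the threshold. The first comparison asks what a knock-down of ALKBH5 does, as labelled, and the others whether the rescue label reverses it. For shALKBH5 against shCtrl, edgeR called 0 of the 21 members and 0% of all 14497 genes, with 0 members and 38 genes at an unadjusted p under 0.05. The members' log2 differences ran from -1.44 for HIST1H2BE to 1.16 for HIST2H4B, with a median of -0.07 against -0.03 over all genes. For rescue against shALKBH5, 0 members and 0% of genes were called, with 0 members and 43 genes at an unadjusted p under 0.05. The differences ran from -0.53 for HIST1H2BC to 0.76 for HIST1H2BH, with a median of 0.05 against 0.01. For rescue against shCtrl, the counts were again 0 members and 0% of genes, with 0 members and 46 genes at an unadjusted p under 0.05. The differences ran from -1.05 for HIST1H2BE to 1.90 for HIST2H4B, with medians of -0.01 for members and for all genes. These comparisons share libraries in pairs and are not independent. DESeq2 and limma-voom also called 0 members in each.

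With the replicate number as a block, the spread between numbers left the error, and still no member passed. The block called 1 gene, or 0.0069% of those tested, for shALKBH5 against shCtrl and for rescue against shCtrl, and 0 genes for rescue against shALKBH5. That gene, the ribosomal protein pseudogene RPL21P16, was named after its values were seen. HIST1H2AC differed by 0.07 (95% interval -0.34 to 0.48) between shALKBH5 and shCtrl with the block, HIST1H2BK by -0.27 (-0.72 to 0.18), HIST1H1C by -0.21 (-0.56 to 0.14) and HIST1H2BD by -0.33 (-0.88 to 0.22). Each interval includes 0, and only that of HIST1H2AC excludes a fall by 0.51, the size seen for HIST1H1C between the numbers. HIST1H2BE was the 1 member with an unadjusted p under 0.05 in this blocked comparison, against 2.39% of all genes. It measured 1.12 and 0.589 CPM in the shCtrl libraries, 0.235 and 0.380 in shALKBH5 and 0.528 and 0.252 in rescue. Its counts were 4.1 to 15.4 per library, and its difference was -1.40 (SE 0.59, edgeR adjusted p = 0.978).

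The pathway that makes and removes histone messages was followed with lists of genes, first those for histone pre-mRNA processing and transcription. Of 16 such genes, 5 rose and 4 fell in number 2, where 45.4% of all genes passed (22.8% higher and 22.6% lower), so the count called is read against that background here and for the lists that follow. Their median log2 difference was -0.06, against 0.01 over all genes. SLBP, which binds the stem-loop, was at 65.7 to 72.2 CPM in number 1 and 118 to 123 CPM in number 2 and rose by 0.80 (edgeR adjusted p = 8.95e-05). LSM11, a protein of the U7 RNP, rose by 0.93 (adjusted p = 0.000865), and its partner LSM10 fell by 0.65 (adjusted p = 0.00222). CSTF2, a subunit of the cleavage stimulation factor, fell by 0.38 (adjusted p = 0.00858). Of 18 histone mRNA decay genes, 4 rose and 6 fell (median -0.16), 10 of 18 called against 45.4% of all genes. ERI1, an exonuclease that trims histone messages at the stem-loop, fell by 0.62 (adjusted p = 0.00101), and the helicase UPF1 fell by 0.47 (adjusted p = 0.00128). The exonuclease XRN1 rose by 0.85 (adjusted p = 0.00388) and PNRC2, a decay adaptor, by 0.48 (adjusted p = 0.00309).

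Of 17 canonical polyadenylation genes, 4 rose and 4 fell (median 0.01), 8 of 17 called against 45.4% of all genes. CSTF3 fell by 0.68 (edgeR adjusted p = 0.000188) and CLP1 by 0.42 (adjusted p = 0.0134), while PCF11 rose by 0.42 (adjusted p = 0.0161) and CPSF4 by 0.34 (adjusted p = 0.0173). Of 33 S-phase DNA replication genes, 17 rose and 2 fell (median 0.30), where 22.8% of all genes rose and 22.6% fell. The kinase gene CDK2 rose by 1.34 (adjusted p = 4.02e-05) and its cyclin CCNE1 by 1.30 (adjusted p = 5.95e-05). RRM2, a subunit of ribonucleotide reductase, rose by 0.85 (adjusted p = 5.16e-05) and the polymerase gene POLA1 by 0.88 (adjusted p = 0.000157). These replication genes and the clustered histone genes thus had medians of opposite sign in number 2. Their part in the histone result was not tested.

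Of 12 tested replacement histones among 15, 6 rose and 1 fell (median 0.24), where 22.8% of all genes rose and 22.6% fell. H2AFZ was at 338 to 344 CPM in number 1 and 522 to 540 CPM in number 2 and rose by 0.64 (edgeR adjusted p = 0.000222). The linker histones H1FX and H1F0 rose by 0.85 and 0.59 (adjusted p = 0.000333 and 0.000696), whereas the clustered linker gene HIST1H1C fell. CENPA, the centromeric H3, rose by 0.57 (adjusted p = 0.00217). The 1 that fell was H3F3B, by 0.40 (adjusted p = 0.0034), at 603 to 639 CPM in number 1 and 466 to 483 CPM in number 2. Of 19 tested histone chaperones among 20, 8 rose and 2 fell (median 0.20), 10 of 19 called against 45.4% of all genes, of which 22.8% rose. CHAF1A, a subunit of the assembly factor CAF-1, rose by 0.61 (adjusted p = 0.000333), HJURP, the CENPA chaperone, by 0.56 (adjusted p = 0.000553) and CABIN1 by 0.42 (adjusted p = 0.00245). The importin IPO4 fell by 0.87 (adjusted p = 5.62e-05).

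Markers were used to check the labelled cell type and other cells. The 10 monocytic markers summed to 3059 to 3362 CPM in number 1 and 3224 to 3656 CPM in number 2, with all 10 tested. Of these, 3 rose and 3 fell in number 2, against 45.4% of all genes called. CD14, a surface marker of monocytes, fell by 0.72, ITGAM by 0.65 and MPO by 0.70, while LYZ, the largest part of the sum, rose by 0.52, CD33 by 0.36 and CD68 by 0.29 (edgeR adjusted p = 0.000169, 0.000282, 0.0305, 0.00235, 0.0111 and 0.0292). Their part in the histone result was not tested. Of 5 erythroid markers none was tested, with HBA1, HBA2 and HBB at 0, and of 7 epithelial and fibroblast markers KRT18, KRT19 and COL3A1 were at 0 and the sum was at most 1.75 CPM. Of 7 T and NK markers CD3D and CD2 were at 0, with sums of 19.7 to 22.0 CPM in number 1 and 15.0 to 19.3 CPM in number 2. The 5 B markers summed to 6.96 to 8.69 CPM in number 1 and 11.3 to 13.5 CPM in number 2, and their part in the histone result was not tested.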

How the data were processed

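Polyadenylated RNA of 6 THP1 libraries was sequenced, 2 for each of 3 labelled groups. The tools named per the submitters' processing notes are kallisto 0.43.1 and CASAVA, with build hg38. The sources used here do not give the options, the transcript release or strand use. The authors deposited an estimated count and a TPM value for each of 179973 transcripts. TPM is scaled by effective length by the authors and was used only for levels between genes. Estimated counts were summed per gene with GENCODE 29 (GRCh38) and rounded. The 16259 unmatched transcripts held 3.13% to 3.32% of the counts of a library and were left out. All 98 member transcripts had the annotated length.

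Library totals of 14534386 to 24857373 estimated counts leave most members at a few reads, which limits their precision. Genes were filtered with filterByExpr, scaled by TMM and tested with edgeR 4.0.16 (R 4.3.3, quasi-likelihood, Benjamini-Hochberg over 14497 genes, threshold 0.05). Groups were compared with 1 coefficient per group, and replicate number 2 against 1 with the group as a term. The SE is the fitted log2 difference divided by the square root of F. Separate cultures are not mentioned in the labels. The p-values then measure only spread among these libraries, which may be technical.

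Same-numbered libraries deviated together from their group means (correlations 0.795, 0.676 and 0.813 over log2 CPM plus 1), so the numbers were taken to pair the libraries. This pairing comes from the data and not from a label. Alternatives were RLE scaling, DESeq2 1.42.0, limma-voom 3.58.1, other filters, protein-coding models alone, the replicate block and each library left out. In the fit for the number, a label left with 1 library adds nothing to the number difference. Near-identical pairs summed, a filter of 30 counts in total and ratios within groups were added after seeing the data.

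The members and lists were chosen with earlier results of these data known. Genes named are the 3 members per class with the highest mean CPM, members past the threshold, up to 4 genes per list by p for the number, ALKBH5, the HIST3H and HIST4H genes, and the gene per class with the longest protein-coding transcript. Genes at the ends of a range, and those on which a sequence match or overlap bears, are also named. HIST2H2AA3 and HIST2H2AA4 were not members. Unique sequence was measured in windows of 31 bases against all GENCODE 29 transcripts on both strands.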

Additional observations from a re-analysis of the deposited data

Results flagged for a closer look

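HIST2H4B, the H4 gene that shares nearly all of its sequence with HIST2H4A, moved in opposite directions between the rescue and shALKBH5 labels in the 2 replicate numbers. The log2 ratio of rescue to shALKBH5 was 1.69 within number 1 and -1.07 within number 2. Each side rests on 1 library per label, and the difference was not tested. The summed HIST2H4A and HIST2H4B level was 15.7 and 18.3 CPM in shALKBH5 1 and rescue 1, and 12.2 and 12.6 CPM in shALKBH5 2 and rescue 2.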

How the results depend on the processing

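For replicate number 2 against 1, the 4 called clustered genes were the same 4 with RLE scaling, limma-voom, no low-count filter, at least 1 CPM in 2 libraries, at least 30 counts in total and no group term. DESeq2 called 2 of them. Protein-coding models alone called 4, without HIST1H2AC and with HIST2H4A. A label left with 1 library adds nothing to the number difference, so the 2 fits of each label below are 1 check and not 2. With 1 rescue library left out, HIST2H4B was higher in number 2, while HIST2H2BE and HIST2H4A were lower. Leaving out 1 library gave 3 to 6 called members. It was 3 without shALKBH5 1 or shALKBH5 2 (without HIST1H1C and HIST1H2BD, with HIST1H3G, which was higher in number 2 where the other 2 were lower), 5 without either shCtrl library (with HIST2H2BE) and 6 without either rescue library (without HIST1H2BD, with HIST2H2BE, HIST2H4A and HIST2H4B). Over all genes the count was 6585, and 3915 to 6811 with 1 library left out, lowest at 3915 without shALKBH5 1 and 4030 without shALKBH5 2. With library sizes not adjusted by TMM, the ratio of number 2 to number 1 was 0.847 for H2B (0.806 with TMM) and 0.806 for all members (0.767 with TMM).

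The sign of some single values changed, and the cause was not tested. HIST2H4B was at 0.55 with DESeq2 and ran from -0.97 to 1.25 with 1 library left out, HIST1H2AG from -0.21 to 0.19 and HIST2H2BF from -0.12 to 0.03. For shALKBH5 against shCtrl the ranges with 1 library left out were -0.51 to 0.07 for HIST1H1C, -0.99 to 1.12 for HIST1H2AC and -0.84 to 0.40 for HIST1H2BK. By construction those fits leave a label with 1 number only and so include the difference between numbers. In the group comparisons 0 members were called under every setting run, the replicate block included. The 48 members with few counts were not tested in the main comparison.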
